A study of Mus musculus with 13 samples.

Results

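Open chromatin was described across the stretch of mouse chromosome 5 that holds Chic2, Gsx2, Pdgfra, Kit and Kdr, in that order, in 13 ATAC-seq libraries of cultured oligodendrocyte precursor cells (OPCs). The 5 genes were taken as neighbours in GENCODE M21 on mm10, and every called peak between their outermost ends plus 100 kb on each side was kept (chr5:74897988-76078458, 1.18 Mb). The called peaks of the 13 libraries joined into 67 regions there, of 99746 in the genome. The cells came from hGFAP-Cre litters (AMGFAP-Cre in the labels) on an FVB/N background, dissected at P5 to P7, in which Cre acts in neural stem and progenitor cells. K27M cultures expressed H3.3 K27M, a lysine-to-methionine change in a histone, from the endogenous H3-3a locus, and control cultures came from littermates whose alleles the labels do not list. Tissue was pooled by region and genotype, so a culture is a pool of animals and not one animal. There were 3 control brainstem libraries (cultures 51, 59 and 61), 3 K27M brainstem libraries (41, 59 and 61), 3 control telencephalon libraries (51, 59 and 61) and 4 K27M telencephalon libraries (41, 51, 59 and 61). The telencephalon is called cortex in the labels and held cortex, corpus callosum and hippocampus. All cells had been selected on an anti-PDGFRα dish after a lectin dish (BSL1) meant to remove endothelial cells and microglia, and all grew in medium with PDGF, forskolin, CNTF and neurotrophin-3. All 13 cultures were undifferentiated (no differentiation in the labels).

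PDGFRα is a receptor tyrosine kinase. On binding PDGF it dimerises and signals through adaptors to the PI3 kinase, phospholipase C gamma and Ras pathways, and in OPCs it drives division and survival and is lost as the cells mature. KIT, the receptor of stem cell factor, belongs to the same receptor class, and KDR (VEGFR2), the main VEGF receptor of endothelial cells, belongs to a related class. Gsx2 encodes a homeobox factor of the ventral forebrain, and Chic2 encodes a small palmitoylated membrane protein. Chromatin at a promoter or enhancer that a cell uses is usually open to the Tn5 transposase that ATAC-seq employs, though an open site does not show that a gene is transcribed.

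Each deposited peak carries a fold enrichment, its signal relative to local background in the same library, and this fold was the measure of strength. To place a fold within its library it was also ranked among all peaks of that library, from percentile 0 for the weakest to 100 for the strongest. Libraries held 16879 to 52466 peaks with no read counts, so sequencing depth is unknown and a missing peak means only that none was called. Distances are from the nearest edge of a region to the first annotated start of a gene.

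The sequences on which the locus turns are shown first. They are the bases before the starts of Pdgfra, Gsx2 and Kit, which differ in how their promoters were called, and the 300 bases at the centre of the strongest region of the locus (194 kb beyond the Pdgfra start) and of the next strongest (144 kb beyond the Kit start). They were read on the plus strand, 5′ to 3′, from the RefSeq tables and assembly of GRCm38, which is C57BL/6J and not the FVB/N genome of these mice. Capitals mark matches on either strand to 4 motifs, CAGNTG (E-box), ACAANG (Sox), TGANTCA (AP-1) and TTGGCA (NFI), of which no 2 share letters here.
Pdgfra, chr5:75152001-75152250: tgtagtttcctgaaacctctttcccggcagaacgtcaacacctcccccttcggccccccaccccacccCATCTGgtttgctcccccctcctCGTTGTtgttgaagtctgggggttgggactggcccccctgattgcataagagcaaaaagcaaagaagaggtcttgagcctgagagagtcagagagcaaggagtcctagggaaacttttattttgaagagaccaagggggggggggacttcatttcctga
Gsx2, chr5:75075351-75075600: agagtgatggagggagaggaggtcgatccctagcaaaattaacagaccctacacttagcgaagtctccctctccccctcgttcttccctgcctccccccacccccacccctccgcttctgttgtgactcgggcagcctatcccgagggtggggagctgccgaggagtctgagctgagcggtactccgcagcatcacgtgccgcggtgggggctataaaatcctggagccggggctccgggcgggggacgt
Kit, chr5:75574737-75574915: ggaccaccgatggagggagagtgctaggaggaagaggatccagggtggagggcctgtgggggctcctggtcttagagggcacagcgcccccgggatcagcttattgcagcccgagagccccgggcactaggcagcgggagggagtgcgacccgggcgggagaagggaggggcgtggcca
Region between Pdgfra and Kit, chr5:75347196-75347495: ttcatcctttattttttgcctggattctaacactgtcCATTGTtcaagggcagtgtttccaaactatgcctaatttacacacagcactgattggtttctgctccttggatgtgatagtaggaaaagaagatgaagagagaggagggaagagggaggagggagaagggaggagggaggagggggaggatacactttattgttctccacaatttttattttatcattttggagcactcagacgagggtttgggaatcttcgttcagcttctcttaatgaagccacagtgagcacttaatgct
Region between Kit and Kdr, chr5:75720203-75720502: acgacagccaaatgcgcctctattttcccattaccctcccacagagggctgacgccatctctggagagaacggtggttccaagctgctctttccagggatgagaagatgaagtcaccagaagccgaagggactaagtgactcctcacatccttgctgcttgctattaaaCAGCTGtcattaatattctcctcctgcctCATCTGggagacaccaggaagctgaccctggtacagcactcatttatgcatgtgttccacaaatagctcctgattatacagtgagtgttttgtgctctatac

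The Pdgfra stretch held 1 E-box match and 1 Sox match, both printed as their reverse complements, and the Gsx2 and Kit stretches held none of the 4. Among 32841 RefSeq promoters, the 250 bases before the start held an E-box match in 44.8%, a Sox match in 36.3%, an AP-1 match in 6.75% and an NFI match in 12.3%. The Pdgfra bases held 4 CpG pairs in 250 bases with 54.4% G+C, against medians of 6 pairs and 52.4%. The other promoters were richer, with 41 CpG pairs at Chic2, 16 each at Gsx2 and Kdr, and 17 or 18 at the RefSeq starts of Kit. The region between Pdgfra and Kit held 1 Sox match, only 2 CpG pairs and 43.3% G+C, and the region between Kit and Kdr held 2 E-box matches and 5 CpG pairs. Over 10955 regions that all 13 libraries shared for at least 300 bases, the median centre held 20 CpG pairs and 61.7% G+C, 48.6% held an E-box match and 39.0% a Sox match. Matches of this length describe the letters and do not show that a factor binds.

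Most regions of the locus lay outside the 5 genes. Of the 67, 8 overlapped a promoter (from 2 kb before to 1 kb after any annotated start), 9 lay in a gene body and 50 were intergenic. Sharing was uneven: 7 regions (10.4%) were called in all 13 libraries, 9 in 10 to 12, 21 in 2 to 9, and 30 (44.8%) in a single library. Across the genome 13.1% of regions were called in all libraries and 43.1% in 1. Of the 7 shared regions 4 were intergenic, 2 contained annotated starts of Pdgfra and 1 lay at the start of Kit. The 377 kb between Pdgfra and Kit held 17 regions and the 276 kb between Kit and Kdr held 14, while the gene body of Kit held no region other than that at its start.

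**Figure D1:**
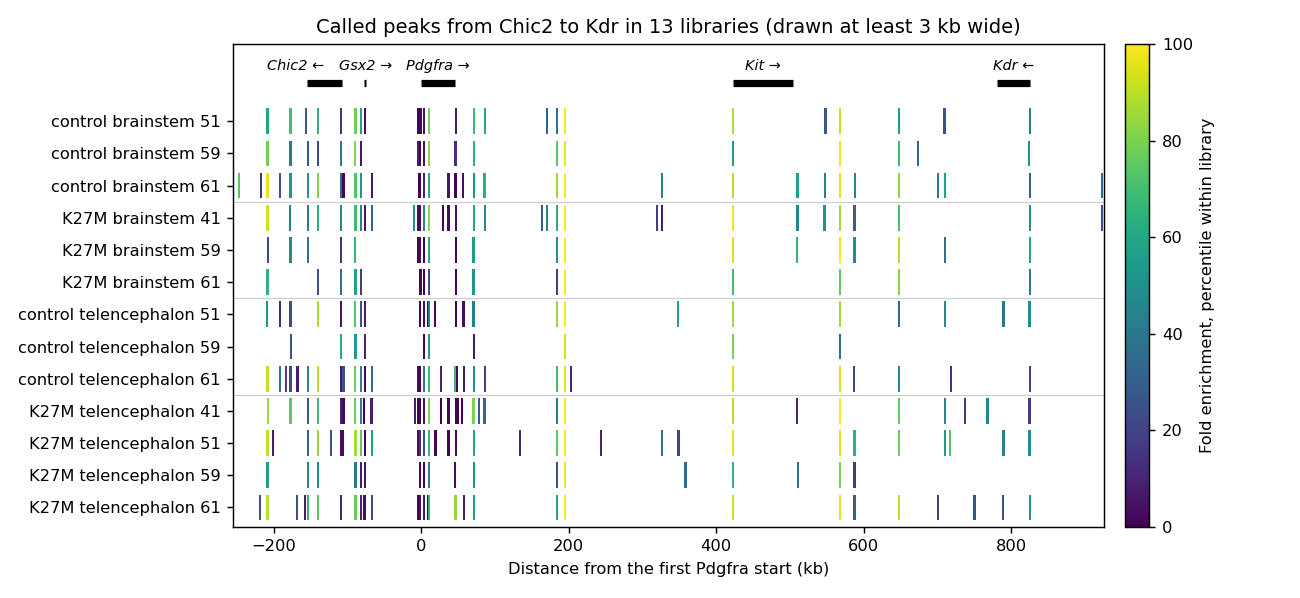
Peaks called in each of the 13 libraries (rows, named by group and culture number) against distance from the first Pdgfra start in kb, coloured by fold percentile within the library, with the 5 genes above. The Kit start and the intergenic regions 194 kb beyond the Pdgfra start and 144 kb beyond the Kit start stand out as bright columns, while the columns at the start of Pdgfra are dark.

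Promoter peaks of the locus were mostly wider and weaker than intergenic ones, with the Kit start and the third Pdgfra region below as strong exceptions. That Pdgfra region counts as promoter because it contains a start, though in most libraries its strong peak began beyond the promoter window. The median promoter peak of a library covered 1233 ± 359 bp (SD, n = 13), against 658 ± 123 bp for intergenic peaks, and was wider than the intergenic median in 12 of 13 libraries. In strength the order was the opposite: the median fold percentile was 25.9 ± 17.1 for promoter peaks, 28.9 ± 21.05 for body peaks (12 libraries, since control telencephalon 59 had none) and 49.7 ± 12.2 for intergenic peaks. The intergenic median was the higher of intergenic and promoter in 11 of 13 libraries. Whether the lower fold of promoter peaks goes with their greater width was not tested. At the edges of the window, the outermost region inside on the Chic2 side was called in 1 library at a fold of 3.67, and the first outside it, 2.71 kb beyond the edge, in 10 at a mean of 3.53. On the Kdr side the last region inside was called in 2 libraries at a mean of 2.61, and the next, 62.8 kb outside, in all 13 at 3.83.

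Pdgfra, whose product was used to select the cells, had called chromatin on both sides of its first start but none over it. In none of the 13 libraries did a peak cover the first start (base 75152292), and the 2.24 kb from 75152229 to 75154472 held no peak at all. Among 9211 protein-coding genes with a promoter peak in every library, the outermost start lay in no peak of any library for 724 (7.86%) and in a peak of all 13 for 6350 (68.9%). Before the start, a merged region of 3.95 kb (chr5:75148279-75152228) was called in 12 libraries, all but control telencephalon 59. In most of these it was 2 separate peaks, which only the single 3413 bp peak of control brainstem 61 joined. The merged region lay in no exon and its peaks covered 1136 to 3413 bp per library. Taking the stronger peak of a library, the mean fold was 2.22 ± 0.15 (SD, n = 12) at a mean percentile of 3.60.

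The second Pdgfra region began 2.18 kb after the first start (chr5:75154473-75157239), overlapped an untranslated exon, and was called in all 13 libraries. Its folds were 2.36, 2.41 and 2.50 in control brainstem cultures 51, 59 and 61. They were 2.76, 2.08 and 2.02 in K27M brainstem cultures 41, 59 and 61. K27M brainstem 41 and control telencephalon 61 stood out, at percentiles 46.1 and 40.2 of their own lists, and the next library reached 23.0. In telencephalon the folds were 2.11, 2.18 and 2.85 in control cultures 51, 59 and 61, and 2.26, 2.44, 2.16 and 2.24 in K27M cultures 41, 51, 59 and 61. The 4 groups overlapped. The mean of 2.34 ± 0.25 (SD, n = 13) was below that of 99.3% of the 13075 regions called in every library, although its peaks were wide, at a mean width percentile of 83.6. Of the 3 starts that this region contains, bases 75155899 and 75156833 were covered in 12 libraries each and base 75155076 in 1.

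The third Pdgfra region, 8.67 kb after the first start (chr5:75160957-75164113), contained the most distal annotated start and was stronger. Its folds were 3.61, 3.66 and 3.35 in control brainstem and 3.90, 3.22 and 2.58 in K27M brainstem, in the culture order given above. They were 2.64, 2.90 and 3.42 in control telencephalon and 3.44, 3.28, 2.87 and 3.07 in K27M telencephalon. It was stronger than the second region in each of the 13 libraries, with a mean of 3.23 ± 0.40 and a mean percentile of 62.5, and the groups again overlapped. The start it contains (base 75161834) was itself covered in 3 libraries. In most libraries the strong peak of the region began beyond the promoter window of that start, inside the gene. In the rest of the gene, 4 body regions were called in 1 to 4 libraries at mean folds of 1.96 to 2.22. A region over the last exon and 3′ untranslated part (chr5:75197296-75201617) was called in 12 libraries at 2.40 ± 0.56, ranging from 1.88 in control telencephalon 51 to 3.55 in K27M telencephalon 61.

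**Figure D2:**
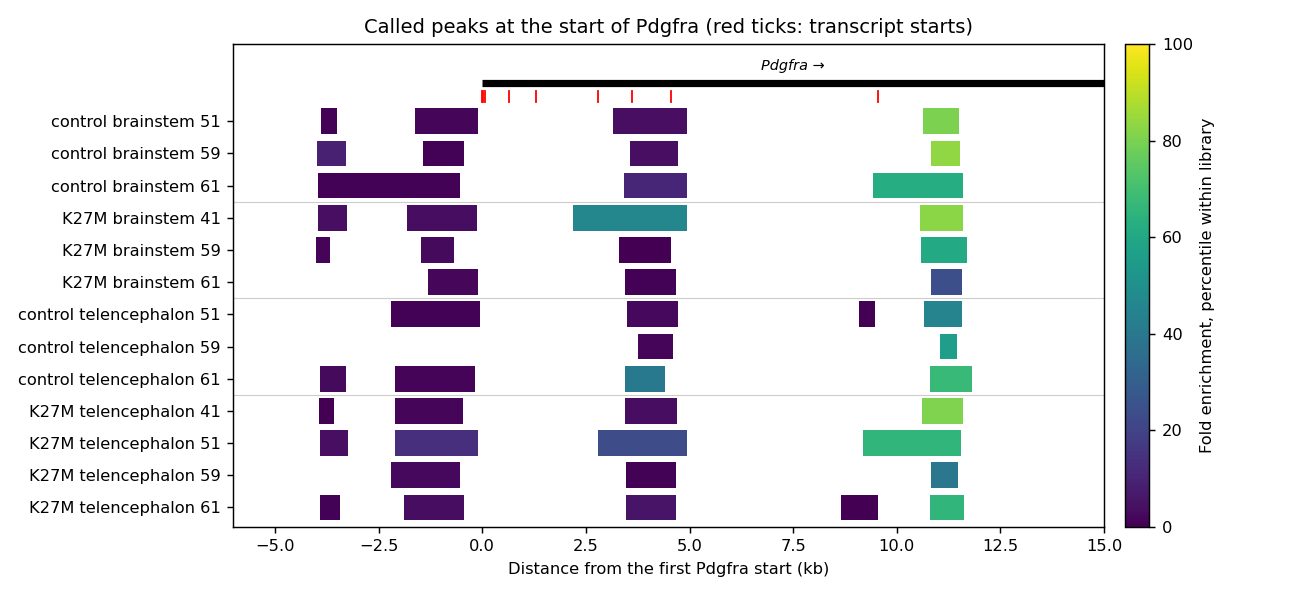
Peaks called in each library from 6 kb before to 15 kb after the first Pdgfra start, coloured by fold percentile within the library, with annotated transcript starts as red ticks. No bar covers the first start, and the cluster of bars near 11 kb is brighter than those before it.

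By fold, Kit had the strongest promoter of the 5. Its region (chr5:75574352-75576508, over the start and first exon) was called in all 13 libraries and covered the start itself in 12. The folds were 3.87, 3.08 and 4.39 in control brainstem and 5.26, 4.37 and 3.18 in K27M brainstem. In telencephalon they were 3.46, 3.24 and 4.64 in control and 3.77, 5.09, 3.22 and 3.98 in K27M cultures. High and low values occurred in each group, and the groups overlapped. The mean was 3.97 ± 0.74 (SD, n = 13) at a mean percentile of 84.7. This placed Kit above 69.5% of the 9211 genes with a promoter peak in every library, where Pdgfra stood above 1.61%. The Pdgfra value was uneven: the strongest peak reaching any of its promoter windows lay at percentiles 40.2 to 65.3 in 4 libraries and at most 5.36 in the other 9. In most libraries the strong peak of the third region began beyond those windows, and that region on its own had the mean percentile of 62.5 given above. By the −log10 q-value of its peaks, the third Pdgfra region exceeded the Kit region in most libraries. The exceptions were K27M brainstem 59 (8.52 against 8.69), control telencephalon 51 (7.598 against 7.698) and K27M telencephalon 51 (16.98 against 22.46). The lead of Kit over that region therefore holds for fold and not for every measure.

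Kdr had a wide promoter region of medium strength (chr5:75975461-75979056, over the start and first exon). A peak reached its promoter in 10 libraries and covered its start in the same number. The fold of those peaks was 2.80 ± 0.19 (SD, n = 10), from 2.49 in K27M telencephalon 41 to 3.21 in K27M brainstem 59, at a mean percentile of 41.7. The 3 libraries without one were control brainstem 59, control telencephalon 59 and K27M telencephalon 59, which are 3 of the 4 cultures numbered 59. Of other endothelial genes, Cdh5, Tek and Tie1, an endothelial cadherin and a pair of angiopoietin-family receptors, had no promoter peak in any library, Pecam1 had one in 1 and Cldn5 in 3. The share of all protein-coding genes with no promoter peak is not given here, so these absences carry no comparison. The other VEGF receptor genes were called more often, Flt1 in 11 libraries at a mean fold of 3.08 and Flt4 in 10 at 2.93. A body region of Kdr (chr5:75941497-75942558, over an exon) was called in 3 of 7 telencephalon and 0 of 6 brainstem libraries, at 2.61 ± 0.13.

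Gsx2 had the weakest promoter of the 5, and among the 5 its detection differed most by region. The region over its start and first exon (chr5:75074827-75076663) was called in all 7 telencephalon libraries and in 2 of 6 brainstem libraries, control 51 and K27M 41. The folds in those brainstem libraries were 2.35 and 2.22. In control telencephalon cultures 51, 59 and 61 they were 2.27, 2.43 and 2.13, and in K27M telencephalon cultures 41, 51, 59 and 61 they were 2.09, 2.08, 2.44 and 2.17. The values overlapped between regions where a peak was called, and all lay at or below percentile 9.41 of their library. A two-sided Fisher's exact test gave p = 0.0210 for this region alone (0.0556 with culture number as a block), and 1 after Benjamini-Hochberg adjustment over all 99746 regions. For this number of calls p = 0.0210 is the lowest value Fisher's exact test can give, so the adjustment left the region almost no room to pass. By the same exact test, leaving out any one telencephalon library gave p = 0.0606, and leaving out any one brainstem library 0.0101 to 0.0455. These values follow from the counts, since every telencephalon library was called, and do not test stability. With each list reduced to its 16879 most significant peaks the region was called in 1 telencephalon and 0 brainstem libraries.

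Chic2 had a weak promoter region just inside its start (chr5:75043113-75044644, over the first exon), called in 12 libraries, all but K27M telencephalon 59. Its folds were 2.59, 2.90 and 2.82 in control brainstem and 2.78, 2.62 and 2.72 in K27M brainstem. They were 2.21, 2.96 and 2.38 in control telencephalon and 2.42, 2.18 and 2.35 in K27M telencephalon cultures 41, 51 and 61. The mean was 2.58 ± 0.27 (SD, n = 12) at a mean percentile of 24.1. On the log2 scale, with each library's median over regions called in 10 or more libraries removed, the brainstem difference was 0.08 (SE 0.09, limma unadjusted p = 0.346, adjusted p = 0.937). The first start itself (base 75044774) was covered in none and lay 130 bp beyond the edge of the region. A second region 1.86 kb before the start was called in 4 libraries at 2.28 ± 0.25. In the gene body a region 31.3 kb from the start (chr5:75011968-75013472, in no exon) was called in 11 libraries and was stronger than the promoter, at 3.35 ± 0.55.

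**Figure D3:**
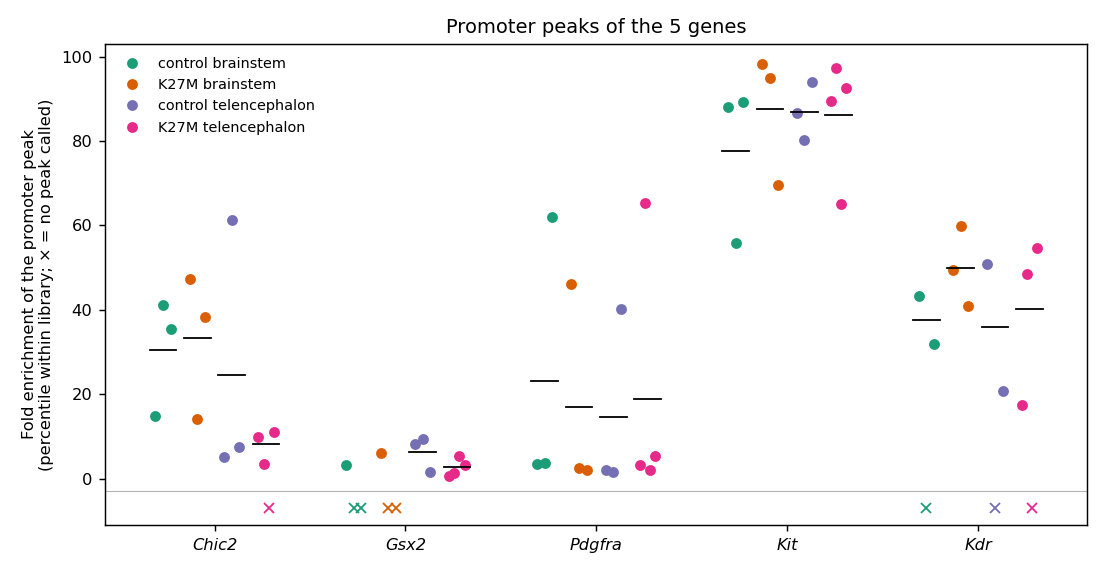
Fold percentile within the library of the strongest peak in each promoter (y axis), for the 5 genes and 13 libraries, coloured by group, with lines at group means over called peaks and crosses where no peak was called. Kit lies highest at a mean of 84.7, Gsx2 lowest at 4.32 and missing in 4 brainstem libraries, and for each gene brainstem overlaps telencephalon and K27M overlaps control where peaks were called.

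Promoter calls of the weaker genes depended on the length of the list. Over the 5 genes and 13 libraries 57 of 65 promoters had a peak. With 16879 peaks per library 33 did: Kit kept 13 and Pdgfra 12, while Chic2 fell to 3, Kdr to 4 and Gsx2 to 1. At a peak p-value of at most 1e-10 only 12 remained, 8 for Kit and 4 for Pdgfra. A window from 1 kb before to 500 bp after the start also gave 57.

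The strongest chromatin of the locus was far from every promoter. The region 194 kb beyond the Pdgfra start, in the stretch between Pdgfra and Kit (chr5:75346584-75348216, in no annotated gene), had the highest fold of the locus in 12 of 13 libraries. Its folds were 5.03, 4.45 and 6.11 in control brainstem and 6.80, 5.31 and 5.18 in K27M brainstem. In telencephalon they were 4.73, 3.68 and 4.89 in control and 5.51, 6.77, 4.54 and 5.40 in K27M cultures. The lowest value was from control telencephalon 59, the shortest list. The K27M and control values overlapped, and so did the brainstem and telencephalon values. The mean was 5.26 ± 0.89 (SD, n = 13), and 0.459% of the 13075 regions called in every library had a mean as high or higher. Its width varied little, from 1112 to 1509 bp.

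The next strongest region lay 144 kb beyond the Kit start, towards Kdr (chr5:75719046-75721366, intergenic). Its folds were 4.09, 4.55 and 4.91 in control brainstem and 4.10, 4.94 and 3.31 in K27M brainstem. They were 3.46, 2.75 and 4.72 in control telencephalon and 4.78, 4.85, 3.56 and 4.32 in K27M telencephalon, so that all groups overlapped. It was the strongest of the locus in 1 library, control brainstem 59. The other shared intergenic regions were 11.8 kb before the Gsx2 start (chr5:75062776-75063817), at 3.37 ± 0.37, and 70.2 kb beyond the Pdgfra start (chr5:75222527-75224805), at 3.02 ± 0.28. The latter was the wider, at 1182 to 2109 bp and a mean width percentile of 93.6. Another 4 intergenic regions were called in 11 or 12 libraries, at mean folds of 2.78 to 3.67.

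The study compared brainstem with telencephalon and K27M with control cells, and these comparisons were made at the locus by fold, by detection and by number of peaks. Fold was compared at the 13075 regions called in all 13 libraries, in limma with culture number as a block and Benjamini-Hochberg adjustment over them. The value was log2 fold minus the median of the library over those regions, and not over its whole list. Positive differences mean higher in brainstem, or higher in K27M. Of the 7 regions of the locus, 0 passed adjusted p under 0.05 for region, where limma called 3 of 13075 (0.0229%) and 832 had unadjusted p under 0.05, none of them here. For genotype 0 passed, against 0 of 13075 (0%), with 586 at unadjusted p under 0.05 of which 2 were at the locus. No locus region had groups that did not overlap by region (0.184% of all regions) or by genotype (0.0688%).

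The largest of these differences lay at the strongest region and at the second Pdgfra region, in opposite directions. On the log2 scale, the region 194 kb beyond the Pdgfra start was 0.19 higher in K27M (SE 0.07, 95% interval 0.04 to 0.34), with unadjusted p = 0.0158 and adjusted p = 0.997 in limma. The centred log2 fold was 0.66 ± 0.12 in 7 K27M and 0.46 ± 0.11 in 6 control libraries. The second Pdgfra region differed by -0.16 (SE 0.08, interval -0.32 to -0.01), with unadjusted p = 0.0418 and adjusted p = 0.999. Neither passed the adjusted threshold. At the Kit start the K27M difference was 0.07 (interval -0.11 to 0.25), and the brainstem difference was -0.02 (interval -0.18 to 0.14). Over the 7 regions the brainstem differences ran from -0.07 to 0.09 with a median of 0.05, and over all 13075 regions the median was -0.0042. The K27M differences ran from -0.16 to 0.19 with a median of 0.0073, and over all regions the median was -0.00032.

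**Figure D4:**
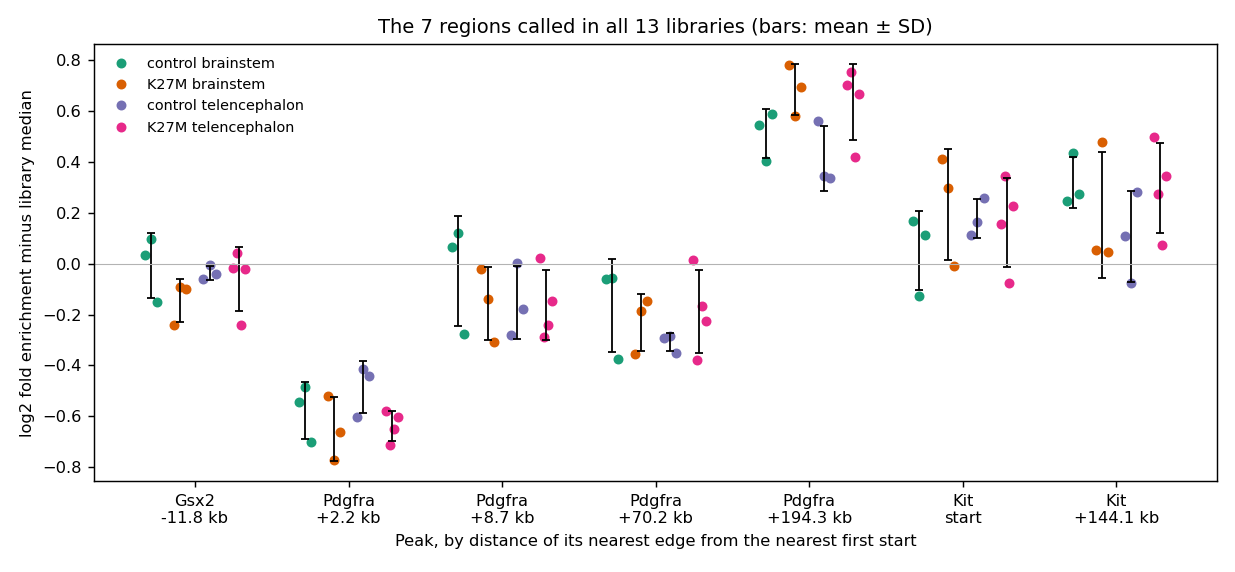
Log2 fold enrichment minus the library median over the regions called in all 13 libraries (y axis), at the 7 such regions of the locus. Points are libraries coloured by group, with group means and SDs. At each region brainstem values overlap telencephalon values and K27M values overlap control values, and the region 194.3 kb beyond the Pdgfra start sits highest while that at 2.2 kb sits lowest.

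The remaining comparisons of fold, by limma over the same 13075 regions, also gave 0 of 7. Within control cells the brainstem difference had 0 calls in the genome (0%) and 642 regions at unadjusted p under 0.05, and within K27M cells 0 (0%) and 669. Within brainstem the K27M difference had 0 (0%) and 589, and within telencephalon 0 (0%) and 531, of which 1 was the region 194 kb beyond the Pdgfra start (0.20, SE 0.09, unadjusted p = 0.0428, adjusted p = 0.999). The interaction, the test of whether the K27M difference depends on region, had 0 (0%) and 519, and was largest at the region 144 kb beyond the Kit start (-0.33, SE 0.17, unadjusted p = 0.0653, adjusted p = 0.999).

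When regions called in 10 or more libraries were admitted, 16 locus regions could be tested with missing libraries left out of the fit, and 0 passed in limma. Over all 23977 such regions, 1 passed for brainstem against telencephalon and 1599 had unadjusted p under 0.05, of which 2 were at the locus. For K27M against control 0 passed and 1138 had unadjusted p under 0.05, of which 3 were at the locus. The smallest unadjusted p for K27M against control over both brain regions was 0.00353, at the region 178 kb beyond the Kdr start towards Kit (chr5:75799543-75800919), 0.29 higher in K27M (SE 0.09, adjusted p = 0.864, fitted without control telencephalon 59 and K27M telencephalon 59). There the K27M difference was 0.44 within telencephalon (SE 0.13, unadjusted p = 0.00164, adjusted p = 0.99968) and 0.14 within brainstem (SE 0.12, unadjusted p = 0.250, adjusted p = 0.99978), and the interaction had an unadjusted p of 0.0780 and an adjusted p of 0.99977. For brainstem against telencephalon it was 0.00706, at the Chic2 body region, with a difference of -0.25 (SE 0.09, adjusted p = 0.594, fitted without K27M brainstem 59 and control telencephalon 59). The region over the end of Pdgfra differed by -0.24 between brainstem and telencephalon (SE 0.12, unadjusted p = 0.0438, adjusted p = 0.737). The region 184 kb beyond the Pdgfra start differed by -0.20 between K27M and control (SE 0.10, unadjusted p = 0.0396, adjusted p = 0.997). Both were fitted without control telencephalon 59.

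Detection was compared by Fisher's exact test at regions called in 5 to 8 libraries. Of 6 such locus regions 0 passed for region, against 0 of 11706 (0%, with 276 at unadjusted p under 0.05), and 0 passed for genotype, against 0 of 11706 (0%, with 147). None of the 6 had an unadjusted p under 0.05 in either. With 6 and 7 libraries Fisher's exact test cannot give a very low p. After adjustment over 11706 regions a call needed many regions near that lowest value at once. The lowest adjusted p of any region was 0.840 for brainstem against telencephalon. The absence of calls therefore does not show that detection was alike. Regions called in at least 2 libraries but in one brain region only were few. There were 3 for brainstem, the largest being 3 of 6 libraries at 124 kb beyond the Kit start (chr5:75699250-75699803), and 4 for telencephalon, the largest being the Kdr body region above. These were 8.11% and 10.8% of the 37 locus regions called in at least 2 libraries, against 4.09% and 6.00% over the genome. Of the 30 regions called once, 21 (70.0%) came from the 7 telencephalon libraries and 9 from the 6 brainstem libraries, and over the genome 53.4% of such regions came from telencephalon. These shares are counts with no test.

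The number of peaks at the locus followed the length of the list. Libraries had 10 to 33 peaks there, and the fewest were in control telencephalon 59 with 16879 peaks in all. Per 10000 called peaks the locus held 6.49 ± 0.75 in 6 brainstem and 6.79 ± 0.87 in 7 telencephalon libraries, a difference of -0.30 with p = 0.561 in a two-sided exact permutation test over 700 arrangements. It held 6.57 ± 0.94 in 7 K27M and 6.74 ± 0.67 in 6 control libraries, a difference of -0.17 with p = 0.726 in the same exact test. Neither difference exceeded the spread between libraries.

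**Figure D5:**
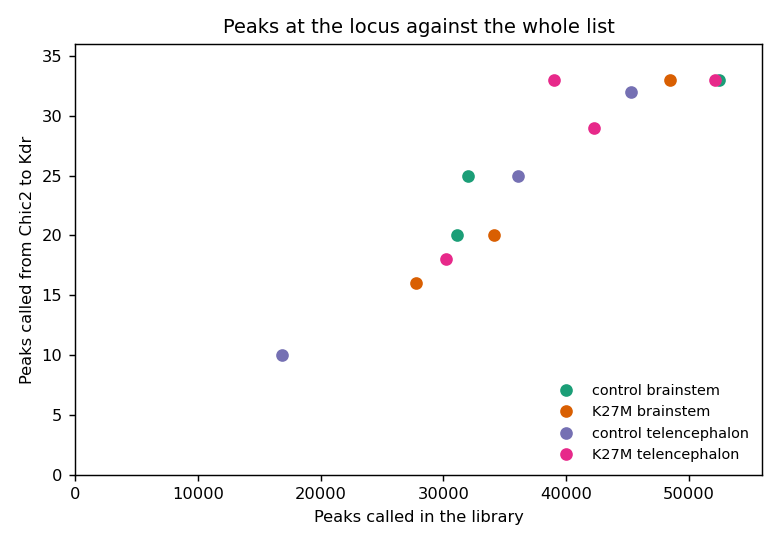
Number of peaks called from Chic2 to Kdr (y axis) against the number called in the whole library (x axis), 1 point per library coloured by group. Points run from 10 at the locus of 16879 in all to 33 of 52466, with the groups interspersed.

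The genes that act with these receptors were read the same way, against 9211 of 21951 protein-coding genes (42.0%) with a promoter peak in all 13 libraries. Of 9 ligand genes 3 had a promoter peak in all 13 libraries: Kitl, the KIT ligand, at a fold of 4.64 ± 0.76, Pdgfc at 3.65, and Vegfa, the main KDR ligand, at 2.68 ± 0.20. Pdgfa, the main OPC mitogen of the family, had one in 12 at 2.43 ± 0.22, and Vegfd had none. Of 5 further receptors of these classes none was called in all 13, Flt1 (VEGFR1) and Flt4 (VEGFR3) were called as above, and Pdgfrb and Csf1r had no promoter peak in any library. Of 7 adaptors and effectors 6 were called in all 13, led by Pik3r1, a PI3 kinase subunit, at 4.00 ± 0.48, while Cbl had no peak. In limma 0 of the 9 shared promoters of the list passed for region or for genotype, and 0 had unadjusted p under 0.05. Their median difference was -0.0079 for brainstem and 0.02 for K27M.

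The OPC label was checked on marker promoters, against the same 42.0% over all protein-coding genes. Of 6 OPC genes 5 (Pdgfra, Olig1, Olig2, Sox10 and Ptprz1) had a promoter peak in all 13 libraries and Cspg4 in 3. Of 6 microglial genes 3 (Csf1r, Cx3cr1 and C1qa) had none, Aif1 had one in 2, Tmem119 in 4 and P2ry12 in 12. The 42.0% refers to calls in all 13 libraries and is no comparison for genes with none. Astrocyte and neuron genes were also called, with Gfap, Snap25 and Syt1 in all 13, at mean folds of 3.28, 3.84 and 4.30. Aldoc was called in 12 (3.01), Slc1a3 (2.58) and Rbfox3 (2.49) in 11, Aqp4 in 8 (3.13) and Stmn2 in 6 (2.66). By the strongest peak reaching a promoter window, the highest mean fold among the 6 OPC genes was 2.85, at Ptprz1, and P2ry12 had 3.42. The third Pdgfra region, whose strong peak began beyond those windows in most libraries, had 3.23. The counts at OPC genes therefore do not set them apart by strength. The part of other cells in the values at the locus was not tested. Sox10, a lineage factor, also had a low promoter fold, 2.28 ± 0.20, while Olig2 had 2.84 ± 0.30.

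The promoter regions most like the second Pdgfra region in centred log2 fold over the 13 libraries, of 9298 protein-coding genes, were those of Ipo5 (Pearson r = 0.860), Mt2 (0.832), Rims1 (0.812), Nkx2-2 (0.793) and Helz (0.793). This region, the shared one nearest the first start, was used because 2 Pdgfra promoter regions qualified. The correlations are a description over points that share libraries and list length, and the central 95% of genes ran from -0.53 to 0.55. Among the 7 shared locus regions the 21 pairwise correlations ran from -0.53, between the second Pdgfra region and the region 194 kb beyond its start, to 0.62, between that second region and the third.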

How the data were processed

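ATAC-seq (Omni-ATAC) peak lists of 13 OPC cultures were analysed. The authors aligned reads with BWA 0.7.17-r1188 to mm10, dropped blacklisted regions and ran MACS2 2.2.7.1 in broad mode on each library, and the cutoff for these libraries is not given in the sources used here. For each peak the deposited lists give a fold enrichment over local background, the −log10 of a p-value and of a q-value, and a score, a scaled and truncated copy of the q-value column that served as a format check. Values were not normalised between libraries by the authors. Peaks overlapping by at least 1 bp were merged across libraries, and a region took the highest fold per library. Cultures sharing a number were treated as matched, after the methods of the study. Deviations from group means correlated on average 0.079 between libraries of the same number (16 pairs, 4 over 0.1) and -0.027 otherwise. Separate cultures served as replicates, each a pool of animals. Tests used limma 3.58.1 in R 4.3.3 and scipy 1.17.1, tested on simulated data. All coordinates are 1-based. Members of the locus, gene lists and tests were chosen with earlier results of these data known. Regions were named singly when called in all libraries, overlapping a member promoter, or at unadjusted p under 0.05 in a test, and others were added after their values were seen as examples of ranges.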

Additional observations from a re-analysis of the deposited data

Results flagged for a closer look

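One value stood far from the others of its group, in the only group of 4 libraries that could be examined this way. The strongest Pdgfra promoter peak of the K27M telencephalon library of culture 51 had a fold of 3.28, and the next of the group had 2.28. In that library the peak 8.67 kb or more after the first start was wide enough to reach the promoter window of the most distal start, so its fold of 3.28 was counted there, while in the other K27M telencephalon libraries the strong peak began beyond the window or was weaker where it reached it. Of 11 sets of values examined, 1 was marked, and chance marks about 1 in 20.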

How the results depend on the processing

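No locus region was called for region, genotype or their interaction under any alternative of fold or detection that was run, leaving out each library included. For detection the number of libraries left little room for a call under any setting. Without the replicate block the fold tests called 0 of 7 in each comparison, with 1 at unadjusted p under 0.05 for genotype. With the replicate block (labels exchanged only within a culture) the share of peaks gave p = 0.484 for region and 0.531 for genotype by exact permutation, and detection gave 0 calls. The K27M difference in share of peaks, -0.17 per 10000, became 0.14 at a peak p-value of at most 1e-06 and 0.17 with no flank, -0.30 with a 200 kb flank, -0.96 (p = 0.233, exact permutation) with equal peak numbers and -2.01 (p = 0.0886, exact permutation) at 1e-10. It ran from -0.48 to 0.048 as single libraries were left out (positive only without control brainstem 51). The brainstem difference, -0.30, was -0.14 with equal peak numbers, -0.57 at 1e-06 and -0.90 (p = 0.377, exact permutation) at 1e-10, and with single libraries left out ran from -0.56 to -0.019. No p in these tests was under 0.05. Without centring, brainstem differences changed sign to 0.052 before Gsx2, 0.0053 at the second Pdgfra region and 0.053 at the Kit start, and the median of all regions moved to 0.12 for brainstem in control cells and -0.11 for the interaction. On the percentile scale the region before Gsx2 gave 2.71 points. With single libraries left out, brainstem differences ran from -0.065 to 0.016 before Gsx2, -0.0084 to 0.10 at the third Pdgfra region, -0.0085 to 0.12 at 70.2 kb, -0.076 to 0.072 at the Kit start and -0.066 to 0.12 at 144 kb. The K27M differences ran from -0.067 to 0.086 at 70.2 kb, -0.0089 to 0.19 at the Kit start, -0.14 to 0.084 at 144 kb, 0.15 to 0.21 at 194 kb and -0.22 to -0.12 at the second Pdgfra region. Over the genome, the alternatives called 0 to 4 regions for brainstem against telencephalon (3 as reported), 0 to 2 for K27M, and 0 or 1 in each comparison within a region or genotype. The cause was not tested. Read depth is unknown, which limits what a missing peak can show. Fisher's exact test over all merged peaks with the block was added after seeing the data.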
